A study of Mus musculus with 28 samples.

Results

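The genes described here are 10 transcription factors that T cells use when they respond to antigen: Tbx21, Prdm1, Id2, Id3, Batf, Irf4, Nfatc1, Nr4a1, Nr4a2 and Nr4a3. They were found by symbol among the 55291 gene names of the deposited tables, and all 10 were present. Their levels were read in sorted OT1 T cells and tumour cells, and, where LLC cells express them, in cultured LLC cells.

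RNA was sequenced in 28 mouse libraries. LLC is a mouse lung carcinoma cell line. On day 16, 5 libraries came from OT1 T cells and 5 from tumour cells, sorted from LLC tumours that carried ovalbumin and NGFR. OT1 T cells carry a transgenic receptor for an ovalbumin peptide. They were activated and given by tail vein on day 9 to Rag1 ko mice, which lack T and B cells of their own but keep natural killer and myeloid cells, so every day 16 library shares the Rag1 ko host and the transfer. The labels do not give the sort gates or the age of the mice, and OT1 cells before transfer were not analysed here. In cultured LLC cells, 4 groups of 3 libraries were taken at 32 h: BAY-876 with TNF, TNF alone, BAY-876 alone, and a control with neither. BAY-876, an inhibitor of the glucose transporter GLUT1, was given at 200 nM for 24 h before TNF, an inflammatory cytokine, at 20 ng/ml for 32 h, and the labels do not say if the inhibitor stayed on. A separate culture gave 3 libraries of LLC cells with 200 nM BAY-876 and 3 with vehicle, at 36 h. Nothing in the labels says that replicates were separate cultures or mice, so p-values measure the spread between libraries, which may be technical.

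Signals from the T cell receptor reach the nucleus through several of these factors. Calcium activates calcineurin, which lets NFAT proteins such as the product of Nfatc1 enter the nucleus, and IRF4 and BATF, an interferon regulatory factor and an AP-1 family protein, bind joint DNA elements. The NR4A proteins are orphan nuclear receptors made within a short time of receptor signalling, and in mouse CD8 T cells they are known for restraining effector function under lasting stimulation. T-bet, from Tbx21, drives the type 1 effector programme, and Blimp-1, from Prdm1, is a repressor known for terminal effector differentiation. ID2 and ID3 bind E proteins and keep them off DNA. In mouse CD8 T cells Id2 is known for effector cells and Id3 for memory precursors.

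The promoter stretches of the 3 Nr4a genes are shown because these receptors stood among the higher members in OT1 cells and because cyclic AMP response elements, bound by CREB proteins, are known in Nr4a promoters. Each is the 250 bases before the RefSeq start on GRCm38.p6, read 5′ to 3′ on the gene's strand. Capitals mark TGACG or its complement CGTCA, the core of the cyclic AMP response element. The first is chr15:101266596-101266845 on the plus strand, the second chr2:57124004-57124253 on the minus strand, and the last chr4:48045055-48045304 on the plus strand.
Nr4a1: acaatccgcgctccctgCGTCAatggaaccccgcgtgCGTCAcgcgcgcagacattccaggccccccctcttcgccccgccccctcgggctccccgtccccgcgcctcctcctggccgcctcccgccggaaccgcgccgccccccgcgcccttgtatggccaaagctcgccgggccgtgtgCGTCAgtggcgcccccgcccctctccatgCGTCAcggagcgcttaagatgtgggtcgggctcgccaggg
Nr4a2: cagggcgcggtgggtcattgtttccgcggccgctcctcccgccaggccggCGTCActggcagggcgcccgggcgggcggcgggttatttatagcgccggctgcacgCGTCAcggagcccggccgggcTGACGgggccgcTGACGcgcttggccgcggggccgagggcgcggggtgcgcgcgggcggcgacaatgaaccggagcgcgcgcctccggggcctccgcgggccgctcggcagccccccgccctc
Nr4a3: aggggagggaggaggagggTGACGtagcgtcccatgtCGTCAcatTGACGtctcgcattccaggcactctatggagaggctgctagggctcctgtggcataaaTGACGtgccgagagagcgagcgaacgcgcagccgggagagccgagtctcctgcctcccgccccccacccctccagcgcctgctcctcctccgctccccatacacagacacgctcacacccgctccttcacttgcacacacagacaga
Each of the 3 stretches held 4 matches on both strands together. Among 27025 promoters of this length, 17.9% held at least 1 match, as did 6 of the 9 members with an entry (Prdm1, Id3 and Batf with 1 each), and 41, or 0.152%, held 4 or more. GC content was 74.4% for Nr4a1, 80.0% for Nr4a2 and 63.6% for Nr4a3. The start used for Nr4a1 lies 12577 bases inside the GENCODE M21 gene, whereas that of Nr4a2 meets the gene's end and that of Nr4a3 lies 152 bases inside it. For Prdm1 and Id2, both on the minus strand, the start used lies at -69753 and -1048 bases from the GENCODE start, inside the gene. The matches counted for Prdm1 thus come from a window far from its GENCODE start. The core was searched after the full element TGACGTCA, which contains it, had no match in any of the 9 members with an entry and after the sequences had been seen. The full element was held by 1.62% of all promoters. Of the other motifs searched on both strands, AP-1 (TGANTCA) matched in 1 of the 9 members and in 6.87% of all promoters. The NFAT core (GGAAA) matched in 3 of the 9 and in 55.6% of all, and the E-box (CANNTG), which E proteins bind, in 5 of the 9 and in 66.0% of all. The NR4A monomer site (AAAGGTCA) and the EGR site (GCGTGGGCG) matched in none of the 9, and in 1.31% and 0.540% of all promoters. A match in this window is a description of the letters and not of binding.

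On day 16, 9 of the 10 members were higher in OT1 cells than in tumour cells and 1, Id3, was lower. Levels are in TPM, a unit scaled to gene length and library total, so genes can be set against each other. Changes are log2 differences of TPM + 1 in a limma fit over all 13511 genes at 1 TPM or more in at least 5 libraries, with p-values adjusted by Benjamini-Hochberg and called under 0.05. In that fit 74.5% of genes were called, 30.1% higher and 44.4% lower in OT1 cells. Tbx21, Prdm1, Irf4 and Nr4a3 reached 1 TPM in no tumour library and Batf in 3 of 5. The first 4 thus passed the filter through OT1 cells alone and had to differ, so their calls and p-values are no support. The other 5 reached 1 TPM in all 10 libraries. The OT1 and tumour libraries of no member overlapped. For Tbx21, Prdm1, Irf4 and Nr4a3 the filter fixed this too. The share of all genes without overlap was not counted, here or in the comparisons below, so a lack of overlap only describes the values. In bulk libraries, fewer cells of a type and less RNA per cell cannot be told apart.

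**Figure D1:**
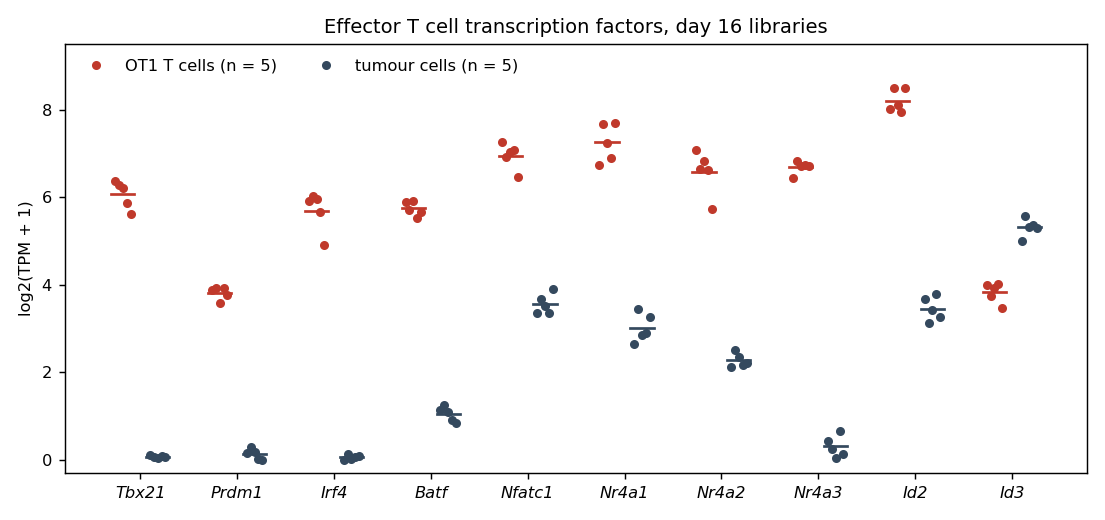
Levels of the 10 members in each day 16 library as log2(TPM + 1), with OT1 libraries left of tumour libraries for each gene. Each point is a library and each line the mean of 5. The groups do not overlap for any of the 10 genes, a trait that was not counted over all genes. Id3 is the gene whose OT1 points lie below its tumour points.

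The markers of each label were higher in the cells that carry it. Summed TPM of 10 T cell markers was 5313 to 8648 in OT1 libraries and 6.59 to 21.3 in tumour libraries. Summed TPM of 7 LLC tumour markers was 60.6 to 234 in OT1 libraries and 1895 to 2082 in tumour libraries. By group mean, all 13 myeloid markers reached 1 TPM in OT1 libraries and 10 of the 13 did in tumour libraries. None was at 0 in every library of either group. Their sum ran over 1673 to 20576 TPM in OT1 libraries, against 175 to 286 TPM in tumour libraries. The sum of 4 natural killer markers had a median of 9.60 TPM in OT1 libraries and 9.12 TPM in tumour libraries. These sums had a different makeup: by group mean, all 4 reached 1 TPM in OT1 libraries and 1 of the 4 did in tumour libraries. In control LLC cells in culture at 32 h, 1 of the 4 reached 1 TPM by the same measure. The sum of 3 endothelial markers was 42.3 to 59.9 TPM in OT1 libraries and 0.839 to 6.53 in tumour libraries, and that of 5 erythroid markers 65.0 to 2781 TPM in OT1 libraries and 10.1 to 899 in tumour libraries. The sum of 5 fibroblast markers was 26.4 to 79.5 TPM in OT1 libraries and 307 to 810 in tumour libraries. In control LLC cells in culture at 32 h the same sum was 839 to 862 TPM, so LLC cells also express genes of this list. The part of these cell types in the member values was not tested. Among OT1 libraries 1 to 5 the myeloid sum was 1673, 7248, 3275, 4480 and 20576 TPM, with the T cell sum at 8321, 8323, 8648, 7030 and 5313 TPM. The myeloid sum exceeded the T cell sum in OT1 library 5 and no other. The part of the myeloid RNA in the member values was not tested. The fit described next cannot test it, as the OT1 libraries it keeps, 1 and 3, still held 1673 and 3275 TPM of myeloid markers. With OT1 libraries 2, 4 and 5, the 3 with the most myeloid RNA, left out after the data were seen, all 10 members were still called, each in the direction given above, with log2 differences of 3.97 for Nr4a1, 4.60 for Id2, 6.22 for Tbx21 and -1.36 for Id3.

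Of the factors named for effector fate, Tbx21 (chr11:97098071-97115331, minus strand of GRCm38) had 81.9, 76.5, 73.3, 57.3 and 48.3 TPM in OT1 libraries 1 to 5, against 0.0814, 0.0390, 0.0352, 0.0672 and 0.0412 TPM in tumour libraries 1 to 5. Every OT1 library stood far above every tumour library, and OT1 libraries 4 and 5 were the lowest of their group. The mean was 67.5 ± 14.1 TPM in OT1 cells, compared with 0.0528 ± 0.0204 TPM in tumour cells (SD, n = 5 each), a log2 difference of 6.00 (SE 0.15, limma adjusted p = 1.61e-11). Prdm1 (chr10:44437177-44528501, minus strand) had 13.8, 14.1, 11.02, 14.2 and 12.6 TPM in OT1 libraries and 0.107, 0.217, 0.139, 0.0149 and 0 TPM in tumour libraries. It was the lowest member in OT1 cells by mean and among those with the least spread, at 13.1 ± 1.36 TPM against 0.0955 ± 0.0899 TPM in tumour cells. The log2 difference was 3.69 (SE 0.12, limma adjusted p = 1.40e-10). Levels this low in tumour cells leave the size of the difference to the pseudocount: with 0.1 TPM in place of 1, the log2 difference was 8.77 for Tbx21 and 6.21 for Prdm1.

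Among the factors that carry receptor signals, Irf4 (chr13:30749226-30766976, plus strand) had 58.9, 64.1, 61.0, 49.8 and 29.2 TPM in OT1 libraries and 0, 0.0961, 0.0174, 0.0498 and 0.0610 TPM in tumour libraries. OT1 library 5 was the lowest OT1 library by a wide margin, yet no tumour library came near it. The log2 difference was 5.63 (SE 0.19, limma adjusted p = 2.85e-10), and 8.49 with a pseudocount of 0.1 TPM. Its partner Batf (chr12:85686669-85709087, plus strand) had 58.5, 50.9, 59.7, 45.2 and 49.9 TPM in OT1 libraries and 1.19, 1.40, 1.14, 0.871 and 0.800 TPM in tumour libraries. The means of Batf and Irf4 in OT1 cells were alike at 52.8 ± 6.11 and 52.6 ± 14.2 TPM, and their libraries overlapped. Batf differed by 4.69 on the log2 scale (SE 0.12, limma adjusted p = 2.66e-11), and by 5.51 with a pseudocount of 0.1 TPM.

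Nfatc1, the calcineurin target, had 152, 119, 129, 134 and 87.6 TPM in OT1 libraries and 9.15, 11.7, 10.4, 9.19 and 14.1 TPM in tumour libraries. OT1 library 5 was the lowest OT1 library and tumour library 5 the highest tumour library, and they still lay apart. The log2 difference was 3.39 (SE 0.16, limma adjusted p = 3.92e-09). A gene on the opposite strand overlaps Nfatc1 in GENCODE M21, and whether strand was used in counting is not given in sources used here, so reads of that gene may be held in its value.

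All 3 Nr4a receptors were higher in OT1 cells. Nr4a1 (chr15:101254269-101274795, plus strand) had 106, 203, 150, 117 and 208 TPM in OT1 libraries and 5.26, 9.88, 6.21, 6.47 and 8.63 TPM in tumour libraries, a log2 difference of 4.23 (SE 0.22, limma adjusted p = 1.02e-08). Nr4a2 (chr2:57106830-57124003, minus strand) had 134, 98.5, 113, 98.2 and 52.3 TPM in OT1 libraries and 3.35, 4.69, 4.08, 3.52 and 3.67 TPM in tumour libraries, a log2 difference of 4.31 (SE 0.21, limma adjusted p = 7.10e-09). Both spread widely within OT1 cells, and OT1 library 5 was the highest for Nr4a1 and the lowest for Nr4a2. Nr4a3 (chr4:48045153-48086447, plus strand) had 85.6, 113, 103, 106 and 104 TPM in OT1 libraries and 0.352, 0.191, 0.0326, 0.586 and 0.101 TPM in tumour libraries. Its OT1 libraries varied least of the 3 receptors, with a mean of 102 ± 10.3 TPM against 0.252 ± 0.222 TPM in tumour cells (SD, n = 5 each). The log2 difference of 6.38 (SE 0.14, limma adjusted p = 6.34e-12) was the highest of the members with a pseudocount of 1 TPM, but with 0.1 TPM it was 8.41, under Tbx21 and Irf4.

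The makeup of the family was read as shares of its summed TPM. The 3 receptors summed to 358 ± 37.8 TPM in OT1 cells, compared with 11.4 ± 2.24 TPM in tumour cells. Nr4a3 made up 28.7 ± 2.58% of that sum in OT1 cells and 2.38 ± 2.25% in tumour cells, a difference of 26.3 points. Nr4a1 made up 43.2 ± 9.87% in OT1 cells and 63.3 ± 4.71% in tumour cells, so that its share was lower in OT1 cells by 20.1 points. Its shares were 32.6, 48.9, 41.0, 36.5 and 57.1% in OT1 libraries and 58.7, 66.9, 60.2, 61.2 and 69.6% in tumour libraries, with no overlap. Nr4a2 took 28.1 ± 9.86% in OT1 cells and 34.3 ± 4.08% in tumour cells, which was not tested. An exact two-sided permutation test over libraries gave p = 0.00794 for the Nr4a1 share (adjusted p = 0.00794 over 3 shares), the smallest p that 5 against 5 libraries can give. Nr4a3 was under 1 TPM in every tumour library, so its share had to differ, and its test, among the 3 adjusted over, is no support. A higher Nr4a3 share leaves less for Nr4a1, so the p of the Nr4a1 share is no support apart from that. Nr4a1 against Nr4a2 alone was not tested.

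The Id genes moved in opposite directions. Id2 (chr12:25093799-25097140, minus strand) had 256, 358, 273, 246 and 357 TPM in OT1 libraries and 11.8, 7.71, 9.67, 12.8 and 8.60 TPM in tumour libraries, a log2 difference of 4.75 (SE 0.16, limma adjusted p = 1.89e-10). Id3 (chr4:136143497-136145755, plus strand) had 14.8, 12.4, 14.1, 15.3 and 9.99 TPM in OT1 libraries and 30.7, 46.5, 39.0, 40.0 and 38.4 TPM in tumour libraries. Each OT1 library held less Id3 than any tumour library, and the log2 difference was -1.48 (SE 0.14, limma adjusted p = 1.27e-06). Id2 was 94.5, 96.6, 95.1, 94.2 and 97.3% of the summed Id2 and Id3 TPM in OT1 libraries, and 27.8, 14.2, 19.9, 24.2 and 18.3% in tumour libraries. Id2 was thus the main transcript of the pair in every OT1 library and Id3 in every tumour library. The mean share was 95.5 ± 1.36% in OT1 cells and 20.9 ± 5.26% in tumour cells (n = 5 each). The difference was 74.7 points. An exact two-sided permutation test gave p = 0.00794 (adjusted p = 0.00794), the smallest p it can give here. Every OT1 library held more Id2 and less Id3 than any tumour library, so the shares could not overlap. The p of the Id2 share is thus no support apart from the differences of Id2 and Id3 themselves.

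**Figure D2:**
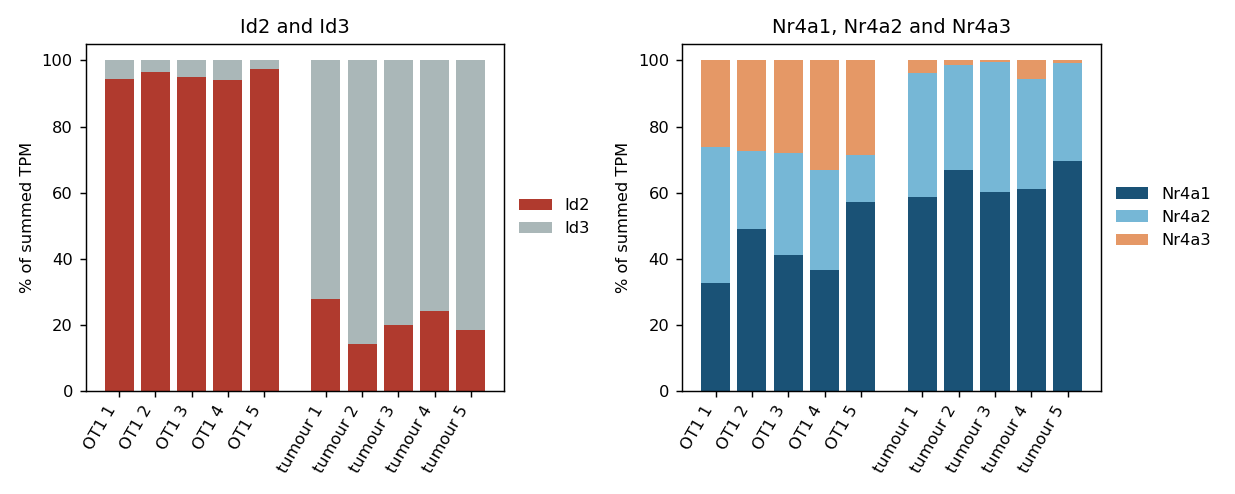
Stacked bars, 1 per day 16 library, of the percent of summed TPM taken by Id2 and Id3 (left) and by each Nr4a receptor (right), with OT1 libraries left of tumour libraries. Id2 lies at 94.2 to 97.3% in OT1 libraries and 14.2 to 27.8% in tumour libraries, and the Nr4a3 share is higher and the Nr4a1 share lower in OT1 libraries.

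By mean level in OT1 cells the order was Id2 at 298 TPM, Nr4a1 at 157, Nfatc1 at 124, Nr4a3 at 102, Nr4a2 at 99.1, Tbx21 at 67.5, Batf at 52.8, Irf4 at 52.6, Id3 at 13.3 and Prdm1 at 13.1. Neighbours in this order overlapped in their libraries except at 2 steps, between Id2 and Nr4a1 and between Irf4 and Id3. Id2 lay at the 96.8 percentile of genes at 1 TPM or more in OT1 cells, Tbx21 at 83.3, Id3 at 43.0 and Prdm1 at 42.6. In tumour cells Id3 stood first at 38.9 TPM and apart from Nfatc1 at 10.9, Id2 at 10.1 and Nr4a1 at 7.29, whose neighbours overlapped. Nr4a2 at 3.86 TPM and Batf at 1.08 stood apart from their neighbours, and the other 4 were under 1 TPM.

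Within OT1 cells the members followed the libraries in different ways. OT1 library 5, with the highest myeloid sum and the lowest T cell sum, was lowest for Irf4, Nr4a2, Nfatc1, Tbx21 and Id3. OT1 libraries 5 and 2, with the highest and the next highest myeloid sums, were the highest for Nr4a1 and Id2. The part of myeloid RNA in any of these values, high or low, was not tested. Per 1000 TPM of T cell markers, Tbx21 ran over 8.15 to 9.85, a ratio of highest to lowest of 1.21, against 1.69 for its TPM. Irf4 narrowed likewise to a ratio of 1.40, against 2.20 for its TPM, and Nr4a2 to 1.63 against 2.55. Nr4a1 ran over 12.7 to 39.1 per 1000 TPM of T cell markers and its ratio widened to 3.07, against 1.96 for its TPM, and that of Id2 to 2.19 against 1.46. The ratio also widened for Nr4a3, to 1.89 against 1.32, for Prdm1, to 1.86 against 1.29, and for Batf, to 1.53 against 1.32, so that 5 of the 10 members widened. These ratios describe 5 libraries and were not tested.

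**Figure D3:**
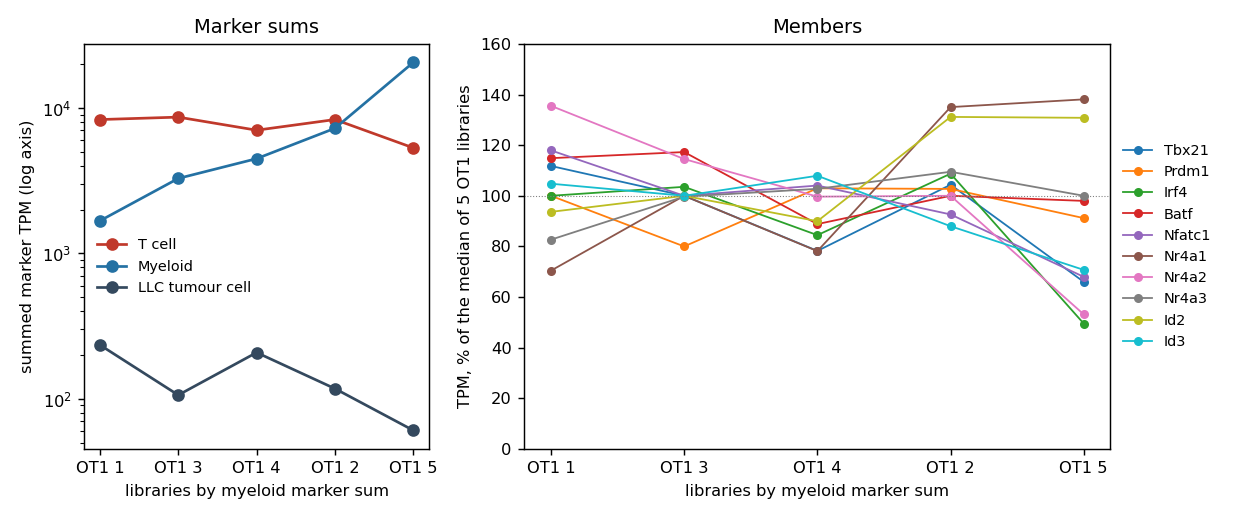
The 5 OT1 libraries in order of their myeloid marker sum, from library 1 to library 5, with summed marker TPM on a log axis (left) and each member's TPM as a percent of its own median over the 5 libraries (right). Lines join the libraries of 1 list or gene. Nr4a1 and Id2 are highest in libraries 2 and 5, and Irf4, Nr4a2, Nfatc1 and Tbx21 are lowest in library 5.

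Genes with a day 16 pattern closest to a member were found by the mean absolute difference of log2(TPM + 1) over the 10 libraries, after each gene's own tumour mean was subtracted, among the genes tested that carry a full symbol. Nearest to Tbx21 were Havcr2, which encodes the inhibitory receptor TIM-3, at 0.0514 and Sh2d1a at 0.0541. Nearest to Irf4 were Il2ra, the interleukin-2 receptor alpha chain, at 0.105 and Tnfrsf18, a receptor also called GITR, at 0.110. The closest genes were Ptger2 (0.119) and Klrc2 (0.127) for Batf, Lcp2 (0.118) and Myo1g (0.134) for Nr4a3, Trp53inp1 (0.14) and Tnfsf14 (0.161) for Id2, and Rab37 (0.0983) and Them6 (0.107) for Prdm1. For Id3, the member that was lower in OT1 cells, they were Parp3 (0.0852) and Psmd1 (0.0923). Nr4a1 had no gene closer than Snx18 (0.171) and Slfn2 (0.175), Nr4a2 none closer than H2bc11 (0.123) and Bend4 (0.142), and Nfatc1 none closer than Spin2c (0.131) and Arl6ip1 (0.135).

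Other genes of these pathways were read from lists, each set against a background of 30.1% higher and 44.4% lower and a median log2 difference of -0.21 over all genes. Some lists also hold members, whose calls are counted there again in every comparison. Id2 and Id3 are among the E proteins and Id inhibitors, Id3 among the genes that Blimp-1 represses, and Nfatc1 among the NFAT and calcineurin genes. Many list genes also passed the filter through OT1 cells. Such genes had to be called higher there, so the day 16 list counts and medians below describe the values and are no support. Of 10 genes that T-bet is known to act on, 8 were tested and all 8 were higher in OT1 cells (median 6.64). They included Ifng, the cytokine interferon gamma, at 232 ± 71.8 TPM in OT1 cells, compared with 0.0195 ± 0.0436 in tumour cells, and Cxcr3, a chemokine receptor, at 73.8 ± 26.8 TPM in OT1 cells, compared with 0.712 ± 0.196 in tumour cells. Klrg1, a marker of short-lived effector cells, did not pass the filter, was picked after its values were seen and averaged 2.38 ± 1.26 TPM in OT1 cells, compared with 0.133 ± 0.256 TPM in tumour cells.

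Of 8 genes that Blimp-1 is known to repress, 7 were tested, 4 were higher and 2 lower in OT1 cells (median 4.31). Tcf7, the memory and stem-like factor TCF1, had 195.5 ± 15.2 TPM in OT1 cells, compared with 0.875 ± 0.365 in tumour cells, and Bach2, a repressor of effector genes, had 20.9 ± 2.95 TPM in OT1 cells, compared with 0.0972 ± 0.0322 in tumour cells. Ccr7, a chemokine receptor, had 147 ± 25.5 TPM in OT1 cells, compared with 0.691 ± 0.382 in tumour cells. Bcl6, which Blimp-1 opposes, was not called, at 17.2 ± 7.49 TPM in OT1 cells, compared with 11.2 ± 1.28 TPM in tumour cells (log2 difference 0.51, limma adjusted p = 0.0525). The lower genes were Id3 and Pax5, a B cell factor, at 0.604 ± 0.477 TPM in OT1 cells, compared with 6.64 ± 1.26 in tumour cells. Il2 averaged 0.696 ± 0.334 TPM in OT1 cells and was at 0 in tumour cells, and was not tested.

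Memory and naive factors numbered 7 higher and 1 lower of 10 tested (median 3.38), with Tcf7, Satb1, Myb and Lef1 as the 4 with the largest change. Satb1, a chromatin organiser, had 76.1 ± 10.5 TPM in OT1 cells, compared with 0.120 ± 0.0459 in tumour cells. Lef1, a relative of TCF1, had 57.0 ± 6.07 TPM in OT1 cells, compared with 1.63 ± 2.16 in tumour cells. Effector and exhaustion factors other than the members were higher for all 9 tested of 10 (median 3.79). Ikzf3, which encodes Aiolos, had 135 ± 25.1 TPM in OT1 cells, compared with 0.0702 ± 0.0816 TPM in tumour cells. Runx3, a factor of the CD8 lineage, had 74.1 ± 5.58 TPM in OT1 cells, compared with 0.174 ± 0.134 in tumour cells, and Tox, known for exhausted T cells, 30.7 ± 20.3 TPM in OT1 cells, compared with 0.0147 ± 0.0328 in tumour cells.

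Among 11 tested of 13 NFAT and calcineurin genes, 5 were higher and 3 lower in OT1 cells (median 0.26). Nfatc2 had 22.2 ± 6.75 TPM in OT1 cells, compared with 0.349 ± 0.0754 in tumour cells. Ppp3cc, a catalytic subunit of calcineurin, had 67.6 ± 14.4 TPM in OT1 cells, compared with 11.7 ± 0.670 in tumour cells, and Rcan3, from a family of calcineurin regulators, 9.71 ± 0.695 TPM in OT1 cells, compared with 0.150 ± 0.195 in tumour cells. Among BATF, IRF and AP-1 genes, 7 were higher and 3 lower of 12 tested (median 0.73). Irf8 had 251 ± 19.1 TPM in OT1 cells, compared with 4.71 ± 1.07 in tumour cells, a gene that myeloid cells also express, and Fosl1, an AP-1 subunit, 34.1 ± 20.2 TPM in OT1 cells, compared with 412 ± 93.1 in tumour cells. Activation-induced genes numbered 10 higher and 1 lower of 12 (median 3.58), among them Cd69, an early activation marker, at 58.3 ± 14.4 TPM in OT1 cells, compared with 0.208 ± 0.384 in tumour cells, and Egr1 at 117 ± 61.2 TPM in OT1 cells, compared with 3.41 ± 2.13 in tumour cells.

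Of the E proteins and Id inhibitors, Id2 was the 1 gene higher in OT1 cells and 5 of the 6 tested were lower (median -1.34). Id1 had 3.45 ± 1.48 TPM in OT1 cells, compared with 20.5 ± 1.51 in tumour cells. The E protein gene Tcf4 had 18.3 ± 7.86 TPM in OT1 cells, compared with 50.4 ± 3.51 in tumour cells, and Tcf12 had 46.1 ± 3.55 TPM in OT1 cells, compared with 107 ± 7.05 in tumour cells. Tcf3, whose product E2A is the main E protein of lymphocytes, had 83.7 ± 6.63 TPM in OT1 cells, compared with 102 ± 14.2 TPM in tumour cells (log2 difference -0.27, limma adjusted p = 0.0337). Id4 was at 0 in every day 16 library.

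In cultured LLC cells at 32 h, the same 5 genes that reached 1 TPM in all tumour libraries were the ones tested: Id2, Id3, Nfatc1, Nr4a1 and Nr4a2. Tbx21 was at 0 in all 12 libraries, Irf4, Prdm1 and Nr4a3 were near 0, and Batf reached 1.13 TPM in 1 TNF library. In control cells Id3 led at 35.0 TPM, ahead of Id2 at 15.2, Nfatc1 at 8.01, Nr4a1 at 4.81 and Nr4a2 at 2.80, and no neighbours in that order overlapped. The 4 groups were fitted together by limma over 12780 genes. The contrasts share libraries, so their results are not independent. A shift in the libraries of a single group would move every contrast that uses that group.

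**Figure D4:**
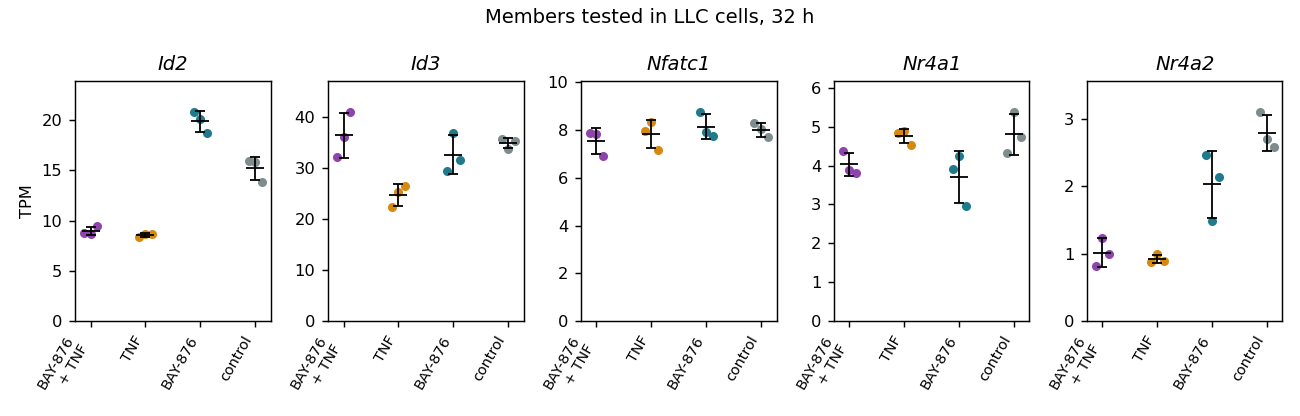
TPM of the 5 members tested in LLC cells at 32 h, a panel per gene, with BAY-876 with TNF, TNF, BAY-876 and control from left to right. Points are libraries, and the black dash and bar are the mean and SD of 3. Id2 is lowest in both TNF groups, Nr4a2 is low in both, and Id3 is lowest in TNF alone.

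Id2, Id3 and Nr4a2, 3 of the 5 tested, were lower with TNF than in control cells, where 26.1% of all genes were lower, 19.4% higher and 45.6% called. Id2 had 8.37, 8.67 and 8.70 TPM with TNF and 15.9, 15.8 and 13.8 TPM in control cells, a log2 difference of -0.76 (SE 0.07, limma adjusted p = 6.90e-06). Nr4a2 had 0.882, 0.990 and 0.888 TPM with TNF and 3.10, 2.70 and 2.59 TPM in control cells, -0.98 on the log2 scale (SE 0.15, limma adjusted p = 0.000226) and -1.50 with a pseudocount of 0.1 TPM. Id3 had 22.3, 25.3 and 26.6 TPM with TNF and 35.6, 33.8 and 35.4 TPM in control cells, a log2 difference of -0.49 (SE 0.10, limma adjusted p = 0.00191). The groups did not overlap for any of the 3. Every TNF library held less than 1 TPM of Nr4a2, so that gene passed the filter through the cells without TNF and its count and p are no support. Nfatc1 differed by -0.03 with a 95% interval of -0.22 to 0.15, and Nr4a1 by -0.01 with an interval of -0.27 to 0.25, and neither was called. In the authors' deposited table, TNF against control gave log2 fold changes of -0.75 for Id2, -0.43 for Id3 and -1.53 for Nr4a2, with adjusted p-values of 0.000432, 0.00535 and 1.00e-06.

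Of the E proteins and Id inhibitors, 5 of 6 were lower with TNF, the members Id2 and Id3 among them (median -0.66, against -0.06 over all genes). The other lower genes were Id1, at 13.0 ± 2.19 TPM with TNF and 27.2 ± 3.79 in control cells, Tcf4, at 35.2 ± 3.59 TPM with TNF and 83.8 ± 4.38 in control cells, and Tcf12, at 97.5 ± 2.31 TPM with TNF and 144 ± 2.81 in control cells. Tcf3 was higher, at 113 ± 2.91 TPM with TNF and 97.1 ± 5.44 in control cells. All 6 tested of the 12 BATF, IRF and AP-1 genes were higher with TNF (median 0.95). Junb had 105 ± 1.38 TPM with TNF and 27.1 ± 2.53 in control cells, and Fosl1 322 ± 9.96 TPM with TNF and 130 ± 12.9 in control cells. Batf3, the BATF relative that LLC cells express, had 4.02 ± 2.24 TPM with TNF and 1.88 ± 0.962 TPM in control cells (limma adjusted p = 0.0405). Among NFAT and calcineurin genes 1 was higher and 3 lower of 9 tested, including Ppp3cc at 8.92 ± 0.462 TPM with TNF and 16.1 ± 0.198 in control cells and Nfat5 at 26.3 ± 1.28 TPM with TNF and 45.9 ± 0.691 in control cells. Activation-induced genes numbered 5 higher and 2 lower of 7 tested, with Tnfrsf9, which encodes 4-1BB, at 36.6 ± 3.66 TPM with TNF and 3.32 ± 0.482 in control cells and Tnfaip3, an NF-kappaB feedback gene, at 10.7 ± 0.643 TPM with TNF and 1.87 ± 0.188 in control cells.

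Id2, 1 of the 5 tested, was higher with BAY-876 alone than in control cells, in a comparison that called 37.4% of all genes, 11.5% higher and 25.8% lower. Id2 had 20.8, 20.2 and 18.7 TPM with BAY-876 and 15.9, 15.8 and 13.8 TPM in control cells, with no overlap, a log2 difference of 0.37 (SE 0.07, limma adjusted p = 0.00228). Nr4a2 had 2.46, 1.48 and 2.15 TPM with BAY-876 and 3.10, 2.70 and 2.59 TPM in control cells, which did not overlap but were not called (-0.34, limma adjusted p = 0.0956). Nr4a1 had 3.91, 4.24 and 2.95 TPM with BAY-876 and 4.32, 5.37 and 4.73 TPM in control cells, also without overlap and not called (-0.31, limma adjusted p = 0.0607). Id3 averaged 32.6 ± 3.83 TPM with BAY-876 and 35.0 ± 0.983 TPM in control cells (-0.10, 95% interval -0.32 to 0.12), and Nfatc1 8.14 ± 0.524 TPM with BAY-876 and 8.01 ± 0.303 TPM in control cells. In the authors' deposited table, Id2 had a log2 fold change of 0.49 for BAY-876 against control, with an adjusted p of 0.00654. Of the E proteins and Id inhibitors 1 was higher and 1 lower of 6, and of the BATF, IRF and AP-1 genes 3 were higher and 1 lower of 6.

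The combination was read against each single treatment. Against BAY-876 alone, where 44.2% of all genes were called, 19.3% higher and 24.8% lower, Id2 and Nr4a2 were lower. Id2 had 8.80, 8.67 and 9.41 TPM with BAY-876 and TNF and 20.8, 20.2 and 18.7 TPM with BAY-876, a log2 difference of -1.07 (SE 0.07, limma adjusted p = 4.21e-07). Nr4a2 had 0.812, 1.24 and 0.995 TPM with BAY-876 and TNF and 2.46, 1.48 and 2.15 TPM with BAY-876 (-0.58, SE 0.15, limma adjusted p = 0.00766, and -0.92 with a pseudocount of 0.1 TPM). The groups of both genes lay apart, and here too 2 of the 3 libraries with TNF held less than 1 TPM of Nr4a2. Of the E proteins and Id inhibitors 4 of 6 were lower and none higher with BAY-876 and TNF than with BAY-876, and of the BATF, IRF and AP-1 genes 5 of 6 were higher and none lower. Against TNF alone, where 34% were called, 10.4% higher and 23.6% lower, Id3 was the 1 member called and it was higher. Id3 had 32.3, 36.1 and 41.0 TPM with BAY-876 and TNF and 22.3, 25.3 and 26.6 TPM with TNF, a log2 difference of 0.54 (SE 0.10, limma adjusted p = 0.00167). In the authors' deposited table, the combination against TNF gave Id3 a log2 fold change of 0.65 with an adjusted p of 0.000132.

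The interaction, which takes the BAY-876 response of cells without TNF from that of cells with TNF, called 199 of 12780 genes, or 1.56%, with 0.736% higher and 0.822% lower. Id3 was the 1 member called, at 0.64 (SE 0.14, limma adjusted p = 0.0487). BAY-876 went with a log2 difference of 0.54 in Id3 where TNF was present and -0.10 where it was not. The call was lost in 13 of 17 alternative settings, among them 10 of the 12 fits with 1 library left out, and the limma adjusted p ran over 0.0324 to 0.110. Of those 12 fits it held without BAY-876 library 2 and without library 1 of BAY-876 with TNF. The difference for Id2 was -0.31 (limma adjusted p = 0.181), and for Nr4a2 0.40 (limma adjusted p = 0.409). The share of Id2 in summed Id2 and Id3 TPM was 19.8 ± 1.43% with BAY-876 and TNF, 25.8 ± 1.35% with TNF, 38.0 ± 3.08% with BAY-876 and 30.3 ± 1.95% in control cells (SD, n = 3 each), and these shares were not tested.

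**Figure D5:**
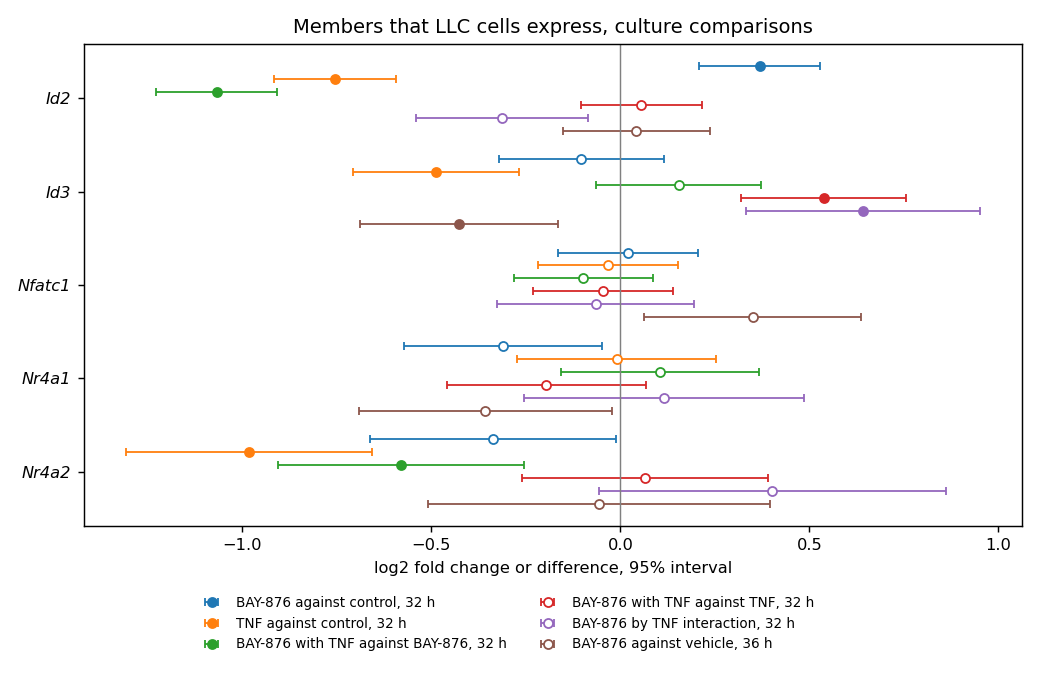
Log2 differences of the 5 members tested in LLC cells, with 95% intervals, for the 32 h contrasts, their interaction and BAY-876 against vehicle at 36 h. Points filled in colour have a limma adjusted p under 0.05 and open points do not, the legend shows the points of Id2, and the grey line marks no difference. Id2 is below 0 in both TNF contrasts and Id3 is above 0 in the combination against TNF.

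At 36 h the deposited values are normalized read counts, tested over 12937 genes at 10 or more in at least 3 libraries, of which 14.4% were called, 7.34% higher and 7.1% lower with BAY-876. The same 5 members were tested and Id3 was the 1 called. Id3 had 787, 589 and 619 normalized counts with BAY-876 and 958, 894 and 818 with vehicle, without overlap, a log2 difference of -0.43 (SE 0.12, limma adjusted p = 0.0402). This call was lost in 5 of the 6 fits with 1 library left out and held only without BAY-876 library 1. Nfatc1 had 350, 261 and 316 normalized counts with BAY-876 and 238, 227 and 257 with vehicle, also without overlap and not called (0.35, limma adjusted p = 0.0986). It was called without BAY-876 library 2 (limma adjusted p = 0.0455). Nr4a1 had 87.0, 84.5 and 93.9 normalized counts with BAY-876 and 107, 128 and 107 with vehicle (-0.36, limma adjusted p = 0.138). Id2, higher with BAY-876 at 32 h, averaged 560 normalized counts with BAY-876 and 544 with vehicle at 36 h (0.04, 95% interval -0.15 to 0.24). The times, the pretreatment and the tables differ between the cultures, so the differences were set side by side and not tested against each other. Tbx21 was at 0 in all 6 libraries, and Prdm1, Batf, Irf4 and Nr4a3 stayed under the filter. Of the activation-induced genes 3 were higher and 1 lower of 7 tested, and of the BATF, IRF and AP-1 genes likewise 3 were higher and 1 lower of 7.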

How the data were processed

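Trizol extraction and a SMARTER mRNA kit were used for all 28 libraries, per the labels. Tools named in the submitters' processing notes are STAR 2.6.1d, Salmon (0.14.1 at 36 h, otherwise 0.13.1) and mm10. The authors used DESeq2 1.34.0, per the same notes and the name of the deposited 36 h file, which holds a normalized count signal of 16847994 to 17134536 per library. No source used here gives the annotation release. The other deposited tables, at 32 h and on day 16, are in TPM that sum to 1000000 in each library, so depth is unknown. Comparison tables of the authors give, per gene, a log2 fold change and an adjusted p-value. No sample could be matched by label to 24 columns of the 32 h table, which were left out. For 2 libraries of BAY-876 with TNF the treatment label names other compound numbers, and the title was followed.

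A pseudocount of 1 was added before log2, which understates the changes of genes at low levels. Each table was fitted alone with limma 3.58.1 in R 4.3.3, with a trend, after a filter of 1 TPM in at least 5 libraries (day 16) or 3 (32 h), or 10 normalized counts in at least 3 (36 h). Shares were compared by exact permutation in SciPy 1.17.1. The members and lists were chosen with earlier results of these data known. The text may name all members, any measured gene of a list with at most 8 measured, the 4 largest called changes of a longer list, and the 2 genes most like each member. Some genes under this rule are not reported here. The fit was tested on simulated data. Of the gene names in the tables, 96.4% were found in GENCODE M21 (GRCm38), the source of gene positions. RefSeq (GRCm38.p6) gave promoters for 9 of the 10 members.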

Additional observations from a re-analysis of the deposited data

Results flagged for a closer look

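The Id3 difference with BAY-876 in LLC cells at 32 h was tested for a change with TNF present. The interaction was 0.64 on the log2 scale (SE 0.14, limma adjusted p = 0.0487), from Id3 levels of 36.4 ± 4.36 TPM with BAY-876 and TNF, 24.7 ± 2.21 with TNF, 32.6 ± 3.83 with BAY-876 and 35.0 ± 0.983 in control cells (SD, n = 3 each). The call was lost in 13 of 17 alternative settings, including 10 of 12 fits with 1 library left out. No member had a library that stood apart from its group in the 26 groups of 5 libraries examined, where about 1 in 20 groups would be picked by chance.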

How the results depend on the processing

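Of 529 log2 differences of members recomputed under another setting, 493 kept their direction and their side of the threshold, 18 lost a call, 2 gained one and 16 changed sign. All 16 were uncalled values near 0, and on day 16 none changed sign or lost its call. With quantile normalization these were TNF against control for Nfatc1 (0.13) and Nr4a1 (0.20), and Nfatc1 in the combination against BAY-876 (0.046) and against TNF (0.066). With 1 library left out, TNF against control ran over -0.073 to 0.021 for Nfatc1 and -0.071 to 0.059 for Nr4a1, and BAY-876 against control over -0.026 to 0.050 for Nfatc1. The combination against BAY-876 ran over -0.015 to 0.19 for Nr4a1, and against TNF over -0.098 to 0.0083 for Nfatc1 and -0.013 to 0.14 for Nr4a2. The Nr4a1 interaction ran over -0.0045 to 0.20, and at 36 h Nr4a2 ran over -0.12 to 0.064 and Id2 over -0.011 to 0.087. Of the counts, 29 of 184 moved by over 1.5 times. The combination against BAY-876 called 1 member at a mean of at least 5 TPM, a filter under which Nr4a2 was not tested. The interaction called 0 members with a pseudocount of 0.1, no filter or quantile normalization, where Id3 had limma adjusted p-values of 0.0508, 0.0957 and 0.0740, against 1 otherwise. With 1 library left out it called 0.861 to 1.97% of genes, against 1.56%, and 0 to 1 members, and it moved by over 1.5 times without control library 1 or 2, BAY-876 library 2 or 3, or TNF library 2 or 3. The 36 h comparison called 4.97 to 18.5% of genes, against 14.4%, and 0 to 1 members, and moved that far without BAY-876 library 3 or any 1 vehicle library. BAY-876 against control then called 1 to 2 members, Nr4a1 joining without BAY-876 library 2 (limma adjusted p = 0.0390). With quantile normalization the share of calls that were higher was 49.3%, against 30.8%, for BAY-876 against control, and 47.6%, against 30.5%, for the combination against TNF. Without a filter the day 16 median of all genes shifted by 0.19. The labels do not pair the libraries, and few same-numbered pairs had deviations correlated over 0.1 (1 of 5 on day 16, 1 of 18 at 32 h and 0 of 3 at 36 h). On day 16 all 5 correlations were above 0 and in 3 of 5 pairs the library of 1 cell type correlated best with its own number in the other, a hint of pairing from the data and not from the design. The correlations were 0.0453 to 0.111 on day 16, -0.192 to 0.120 at 32 h and -0.0742 to -0.0194 at 36 h. The replicate block changed no member's call, but with it the differences of 74.7, 26.3 and -20.1 points in the shares had exact p = 0.0625, the smallest that 5 pairs allow. The cause of these changes was not tested. The depth of the TPM tables is unknown, so no counting interval can be given for levels under 1 TPM.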
